A study of Drosophila melanogaster with 9 samples.

Results

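The nuclear genes for the oxidative phosphorylation machinery of mitochondria were followed in brains of adult female Drosophila melanogaster. Members were all genes whose identifier starts with ND- (complex I), SdhA to SdhD (complex II), UQCR (complex III), COX and a digit (complex IV) or ATPsyn (complex V). This name rule found 80 of the 17562 gene identifiers, of which 40 belong to complex I, 6 to complex II, 8 to complex III, 11 to complex IV and 15 to complex V. Among them, 18 carry the name of another subunit followed by an L (such as COX4L), and are called like-named paralogs here. The rule uses names only and leaves out subunits with other names, such as blw and Cyt-c1, which are described separately.

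The respiratory chain passes electrons taken from NADH (complex I) and succinate (complex II) through ubiquinone, complex III and cytochrome c to oxygen at complex IV. The protons pumped on the way drive ATP synthase, called complex V. Most subunits are encoded in the nucleus and imported, while a small set is encoded in mitochondrial DNA, and each of complexes I, III, IV and V holds proteins from both genomes. Neurons depend heavily on this pathway for their ATP.

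RNA was measured in 3 groups of 3 libraries, each made from a pool of 20 dissected brains of females aged 4 to 6 days. The groups were PGRP-LB mutants given the bacterium E.cc15 by mouth for 16 h (PGRP-LB Ecc15), wild-type flies given it in the same way (WT Ecc15) and wild-type flies without it, kept on sucrose per the design text (WT control). The PGRP-LB enzyme cleaves peptidoglycan, a polymer of the bacterial cell wall. The study concerns how such peptidoglycan bears on transcripts of the fly brain. The columns name the mutant PGRP-LBD, and its allele is not described. The design text gives a longer bacterial diet than the protocol. No uninfected mutant library was analysed here. Genotype and infection therefore change together between PGRP-LB Ecc15 and WT control.

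All values are the authors' normalized counts. The normalized totals were 25.3 to 27.8 M per library and table, and an estimated 19.4 to 30.7 M counted reads stood behind them, the fewest in WT Ecc15 library S2. The neuronal genes elav, nSyb and brp and the glial gene repo were present in every library, and repo, the lowest of them, was at 3865 or more in the PGRP-LB Ecc15 libraries. PGRP-LB itself stood at 687, 1359 and 721 in PGRP-LB Ecc15 and 164, 120 and 151 in WT control, and since the altered stretch of the gene is not given, this does not check the mutant label. The libraries of a group are called S1 to S3 after their columns. Nothing says that the pools were raised apart, so p-values measure the spread between these pools, which may be technical.

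Of the 80 members, 60 had a mean of at least 50 normalized counts over the 9 libraries, and 59 of these are subunit genes without the L suffix. Levels between genes are compared per kb of annotated exon. By this measure complex V had the highest median in WT control brains, 7206 normalized counts per kb over 11 members. The medians were 6515 for complex IV (8 members), 4215 for complex III (5), 3782 for complex II (4) and 3183 for complex I (32). The highest levels per kb were those of ATPsynbeta, the catalytic subunit of ATP synthase, at 20955 and of ATPsynC, which builds its proton-driven ring, at 19664.

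Within complex I the highest level per kb was that of ND-MLRQ, at 14017 in WT control. Its human counterpart, first counted as a complex I subunit, is now placed with complex IV. Next came ND-51, which carries the NADH-binding site, at 7916 per kb, and the lowest of the 32 was ND-MWFE at 161 per kb. In complex IV the first places were held by COX6B (10739 per kb) and COX5A (9419 per kb). In complex III they were held by the core protein UQCR-C1 (7010 per kb) and by UQCR-C2 (4309 per kb), also a core protein. The 4 subunits of complex II lay close together, with SdhC, a membrane anchor, at 5171, the flavoprotein SdhA at 3933, the iron-sulfur protein SdhB at 3631 and the other anchor SdhD at 3566 per kb.

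Some members had little or no signal. A total of 4 were listed at 0 in every library: the subunit genes ND-MNLL and UQCR-14 and the paralogs ND-20L and COX5BL. The subunit gene ND-B8 stood between 1 and 5 normalized counts. In the annotation, all exon bases of UQCR-14 are shared with CG32576 on the opposite strand, all of COX5BL with Trmt6 on the opposite strand, and all of ND-MNLL with CG45089 on its own strand. Over all protein-coding genes, 66 of 71 (93%) of those covered in full by exons of the opposite strand were listed at 0, and 307 of 310 (99%) of those covered in full on the same strand. Among the 8801 protein-coding genes that share no exon base, 471 (5.35%) were listed at 0. For such covered genes a listing at 0 gives no level of their RNA. Whether reads were counted by strand is not given. In all, 34 members share at least 1 exon base with another gene, among them ND-MWFE (15.2% of its exon bases on its own strand and 19.8% on the other), UQCR-6,4 (40.5%) and ATPsyndelta (35.6%), and their levels are uncertain.

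**Figure D1:**
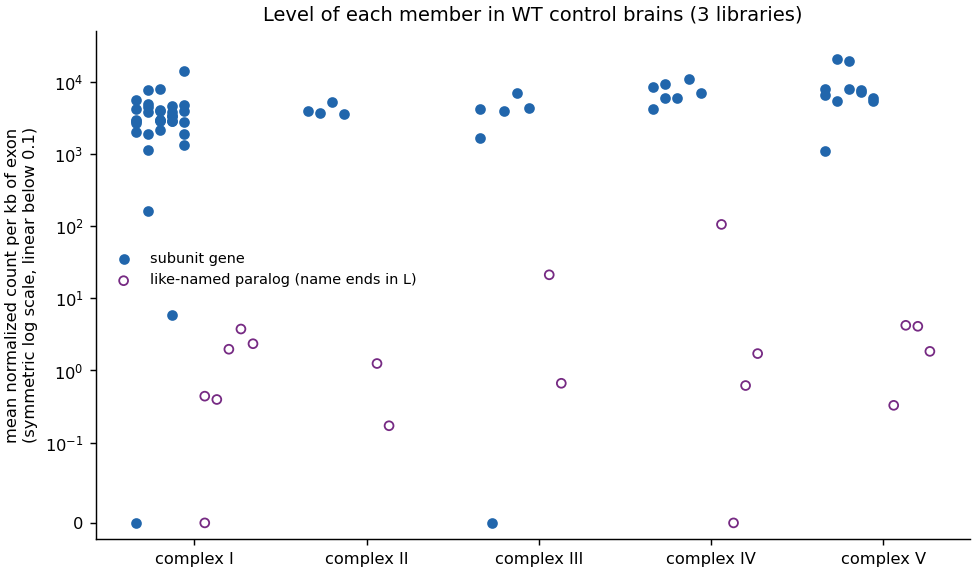
Mean normalized count per kb of exon in the 3 WT control libraries (symmetric log axis, linear below 0.1) for each member by complex, with subunit genes as filled points and like-named paralogs as open points. Complexes IV and V hold the highest medians (6515 and 7206 per kb), and every paralog but COX4L (106 per kb) lies at or under 21.2 per kb.

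The first comparison set PGRP-LB Ecc15 against WT control brains. In the mutant brains 5 complex I genes passed the test as lower, and the members' summed level was 0.885 of that in WT control. The 5 genes were ND-13B, ND-15, ND-SGDH, ND-B14,7 and ND-49, with log2 changes between -0.48 and -0.21, and no member was called higher. In total 5 of 70 members tested (7.14%) were called lower, where the background over all 13384 genes tested was 6.26% lower and 9.65% higher (838 and 1292 genes, limma, Benjamini-Hochberg adjusted p under 0.05). The count of members called lower was 2 without PGRP-LB Ecc15 S1 or S3 or WT control S2, and 3 without PGRP-LB Ecc15 S2. In the fit within the deposited table the share of members called lower was close to that of all genes and below the 8.35% of genes with a mean of at least 1000. With TMM scaling the share of members was again 5 of 70 (7.14%), and that of all genes was 6.91%. The shares stood further apart after quantile normalization and in a joint fit. The share among genes with a mean of at least 1000 was not taken under these settings. After quantile normalization 10 of 70 members (14.3%) were called lower, where 9.7% of all genes were (1298 lower and 1054 higher). In a joint fit of all 9 libraries 13 of 70 members (18.6%) were called lower, where 9.73% of all genes were (1290 lower and 1714 higher).

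ND-13B is an accessory subunit of complex I, the counterpart of human NDUFA5. On a common scale of all 9 libraries it stood at 1531, 1629 and 1733 in PGRP-LB Ecc15, at 1910.2, 2168 and 2062 in WT Ecc15 and at 2239, 2418 and 2138 in WT control. All 3 mutant libraries lay below all 6 wild-type libraries. The log2 change against WT control was -0.48 (SE 0.08, limma adjusted p = 0.00752, n = 3 per group).

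ND-15, the counterpart of the accessory subunit NDUFS5, stood at 2289.6, 2663 and 2566 in PGRP-LB Ecc15, at 3244, 3208 and 3280.0 in WT Ecc15 and at 3194, 3629 and 3209 in WT control. The mutant libraries lay apart from both wild-type groups, which overlapped each other. Its log2 change against WT control was -0.42 (SE 0.08, limma adjusted p = 0.0163). The call was lost without PGRP-LB Ecc15 S1 or S3 or without WT control S2, with limma adjusted p up to 0.0564.

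ND-SGDH, the counterpart of the accessory subunit NDUFB5, stood at 2943, 3301 and 3313 in PGRP-LB Ecc15, at 3475, 3810.4 and 3727 in WT Ecc15 and at 4165, 4089 and 4053 in WT control. The 3 groups did not overlap, and WT Ecc15 lay between PGRP-LB Ecc15 and WT control. Its log2 change against WT control was -0.37 (SE 0.06, limma adjusted p = 0.0103). Leaving out any 1 library left the calls of ND-13B and ND-SGDH in place.

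The other called members were ND-B14,7 (ND-B14.7 in the annotation), the counterpart of the accessory subunit NDUFA11, and ND-49, a core subunit that helps to form the ubiquinone pocket. ND-B14,7 stood at 2427, 2859 and 2959 in PGRP-LB Ecc15, at 3059.6, 3292 and 3386 in WT Ecc15 and at 3492, 3717 and 3266 in WT control, with a log2 change against WT control of -0.36 (SE 0.09, limma adjusted p = 0.0419). ND-49 stood at 10095, 10708 and 10669.6 in PGRP-LB Ecc15, at 11626, 11690.2 and 11397 in WT Ecc15 and at 12063, 11929 and 12256 in WT control, with a log2 change of -0.21 (SE 0.05, limma adjusted p = 0.0412). For both genes every mutant library lay below every wild-type library. Both calls were lost when any 1 library was left out, with limma adjusted p up to 0.137 for ND-B14,7 and 0.125 for ND-49.

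**Figure D2:**
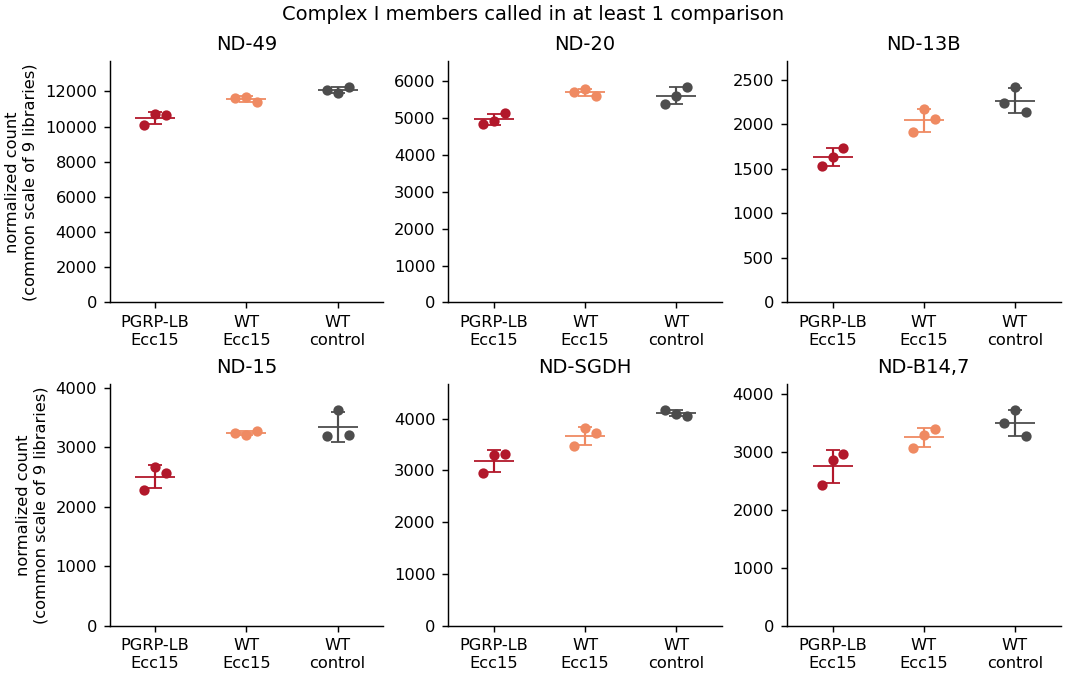
Normalized counts on the common scale in each library (points) of PGRP-LB Ecc15, WT Ecc15 and WT control, with mean and SD (bars, n = 3), for the 6 members called in at least 1 comparison. All are complex I genes, and in each panel the 3 mutant libraries lie below the 6 wild-type libraries.

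In the annotation (BDGP6) the called genes are spread over the genome. ND-13B lies at 3L:10693184-10694108 and ND-SGDH at 3L:12137496-12138584, both on the minus strand, ND-15 at 2L:114726-156030 on the plus strand, ND-49 at 4:568296-571554 and ND-20 at X:15985473-15986808, both on the minus strand. Exons of ND-13B, ND-49, ND-20 and ND-B14,7 share no base with another gene. Of the exon bases of ND-15, 15.7% are shared with Pus10 on the opposite strand, and of those of ND-SGDH 7.21% with Atg12 on the opposite strand. The values of ND-15 and ND-SGDH carry that uncertainty.

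Most other complex I genes had values below WT control without passing the test. Of the 32 members with a mean of at least 50, 30 had a log2 change below 0, with a median of -0.17. The 7 nuclear core subunits, most of which carry the flavin or iron-sulfur clusters or bind the quinone, were all below 0. Their median was -0.20, and 1 of them (ND-49) was called. The grouping into core and accessory subunits was made after the values were seen. ND-51 stood at 9936, 10551 and 10847 in PGRP-LB Ecc15 and at 13690.0, 12984 and 11085 in WT control, a log2 change of -0.27 (SE 0.09, limma adjusted p = 0.0886). ND-75, the largest iron-sulfur subunit, had -0.24 (SE 0.08, limma adjusted p = 0.0785), and ND-20, which holds the last iron-sulfur cluster before the quinone, had -0.18 (SE 0.06, limma adjusted p = 0.0767). The groups did not overlap for ND-51, ND-75, ND-20, ND-30 and ND-23 either. Thus 6 of the 7 core subunits were lower in every mutant library than in every control library. This held for 16.9% of all genes tested and 21.3% of those with a mean of at least 1000, as all 7 have. Against WT Ecc15 it held for 4 of the 7, beside 17.3% of all genes and 24.2% of those with a mean of at least 1000.

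Among the 25 accessory subunits with a mean of at least 50 the median was -0.17 and 23 were below 0. ND-18, the counterpart of NDUFS4, had -0.24 (SE 0.12, limma adjusted p = 0.204), with overlapping groups. ND-MLRQ had -0.02 (SE 0.16), with control libraries on both sides of the mutant libraries. In this set ND-MWFE, at 0.07 (SE 0.24), and ND-B14,5A, at 0.05 (SE 0.09), were the members above 0, neither by more than its SE.

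**Figure D3:**
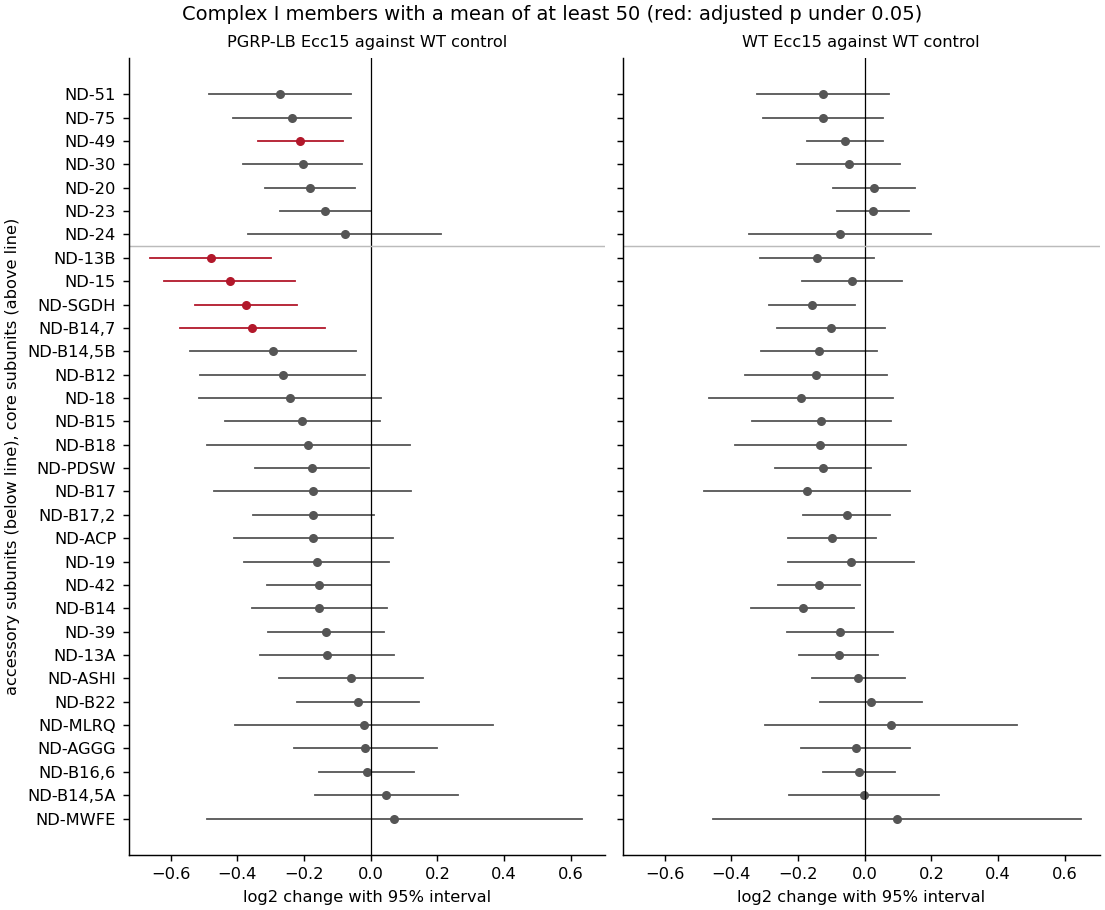
Log2 change (points) with 95% interval (lines) of the 32 complex I members with a mean of at least 50, core subunits above the grey line, for PGRP-LB Ecc15 (left) and WT Ecc15 (right), each against WT control. Red marks an adjusted p under 0.05, reached by 5 members in the left panel and by 0 in the right panel.

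Complexes II to V held no call in the fit within the deposited table, and some under other settings. The joint fit of 9 libraries called SdhA, COX6B, ATPsynbeta and ATPsyngamma, of the ATP synthase rotor, as lower. Quantile normalization called ATPsynbeta, ATPsyngamma and COX5A as lower, and the fit without WT control S1 called COX5A and ATPsynC as lower. Of 4 subunits of complex II all had a log2 change below 0, with a median of -0.14. SdhA stood at 8889.7, 9826 and 9800.0 in PGRP-LB Ecc15 and at 11347, 10711 and 10390.5 in WT control (log2 change -0.19, SE 0.07, limma adjusted p = 0.0976). SdhC stood at 4054, 4131 and 3848 in PGRP-LB Ecc15 and at 4133, 4633 and 5290.0 in WT control (-0.22, SE 0.09, limma adjusted p = 0.151). For both the groups did not overlap, though the highest mutant and the lowest control library of SdhC nearly met. SdhB and SdhD had -0.08 (SE 0.08) and -0.05 (SE 0.10), with overlapping groups.

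In complex III 4 of 5 members were below 0 with a median of -0.11, and no member had groups that did not overlap. UQCR-C1 had a log2 change of -0.11 (SE 0.08) and UQCR-C2 one of -0.20 (SE 0.11). UQCR-Q, a small membrane subunit, had -0.03 (SE 0.12). The smallest limma adjusted p in this complex was 0.272.

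In complex IV 7 of 8 members were below 0 with a median of -0.15. COX5A had -0.28 (SE 0.10, limma adjusted p = 0.0967) with overlapping groups, and COX6B had -0.21 (SE 0.07, limma adjusted p = 0.0984). COX6B stood at 6809.5, 7496 and 7767 in PGRP-LB Ecc15 and at 8022, 8990.4 and 8406 in WT control, with no overlap. COX5B, a zinc-binding subunit, was the exception at 0.05 (SE 0.07).

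In complex V 10 of 11 members were below 0 with a median of -0.17. ATPsynbeta stood at 37758, 44526 and 42781 in PGRP-LB Ecc15, at 46981, 47517 and 47816 in WT Ecc15 and at 51132, 50410.3 and 48456 in WT control. All mutant libraries were lower than all control libraries, at a log2 change of -0.27 (SE 0.08, limma adjusted p = 0.0709). ATPsynC had -0.20 (SE 0.10, limma adjusted p = 0.217) and ATPsynB, of the stalk that holds the catalytic head still, had -0.17 (SE 0.10, limma adjusted p = 0.309), both with overlapping groups. ATPsyndelta, part of the rotor, lay above 0 at 0.13 (SE 0.08).

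Over the 70 members tested, the median log2 change was -0.16, against 0.01 over all genes tested. Of the 70, 58 (82.9%) were below 0, where 48.3% of all genes were, and 53% of genes with a mean of at least 1000. The groups did not overlap, with the mutant lower, for 23 members (32.9%), where this held for 16.9% of all genes and 21.3% of genes with a mean of at least 1000. It held in the other direction for 1 member, where 18.8% of all genes did. These 70 passed a filter on low values and are not all members, and genes of 1 library are not independent of each other. The median depended on 1 library: without PGRP-LB Ecc15 S1 it was -0.073. The authors' deposited table gives 7 members lower and 0 higher at an adjusted p under 0.05, where it has 6.19% of all genes lower and 9.03% higher. They are the 5 named above, ATPsynbeta (adjusted p = 0.0139 in the authors' deposited table) and ND-51 (adjusted p = 0.0430 in the authors' deposited table).

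**Figure D4:**
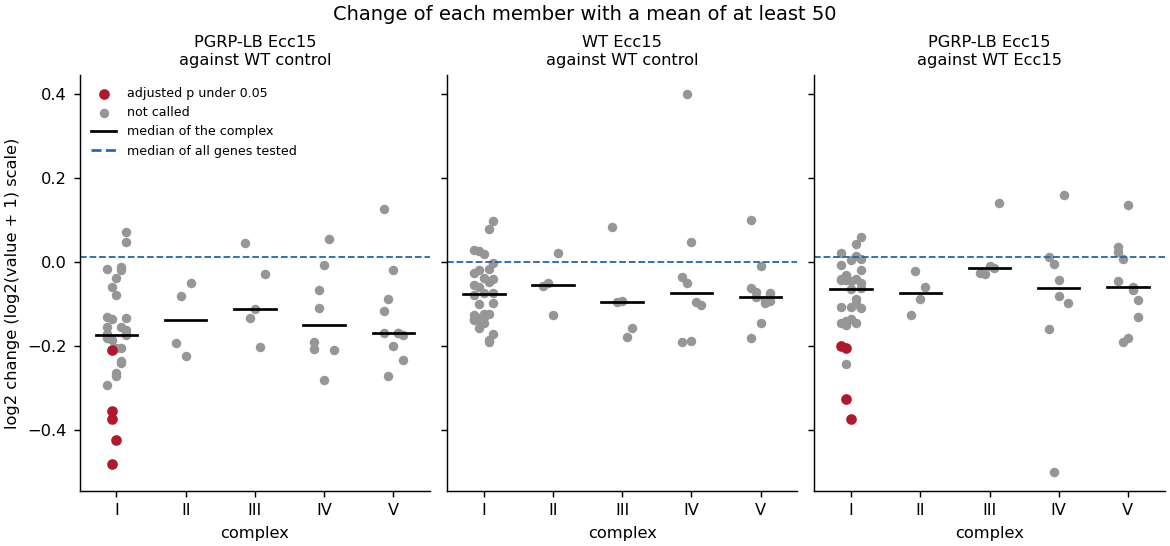
Log2 change of the 60 members with a mean of at least 50, by complex, in the 3 comparisons, with red for an adjusted p under 0.05, a black bar for the median of a complex and a dashed line for the median of all genes tested. In PGRP-LB Ecc15 against WT control the medians of the 5 complexes lie between -0.17 and -0.11, below the dashed line at 0.01, and the called genes are all in complex I.

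The second comparison set WT Ecc15 against WT control, that is, infection in wild-type flies. No member was called in either direction among 69 tested, against a background of 0.122% higher (16 of 13085 genes) and 0% lower by limma, 0.83% higher and 0.113% lower in the authors' deposited table. At an unadjusted p under 0.05, 3 members were lower (ND-SGDH, ND-B14 and ND-42) and 0 higher, where 2.54% of all genes were lower and 4.75% higher, and the authors' deposited table calls 0. The medians of complexes I to V over members with a mean of at least 50 were -0.076, -0.055, -0.095, -0.074 and -0.085. Over the 69 the median was -0.074, against -0.0007 over all genes, and 54 (78.3%) were below 0, where 50.2% of all genes were. The infected group lay entirely below the control group for 8 members (11.6%, against 5.67% of all genes) and above it for 1 (against 6.93%), COX4L.

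Of the genes called in the mutant, ND-SGDH had the largest change in infected wild type, -0.16 (SE 0.05, limma adjusted p = 0.614). ND-13B had -0.14 (SE 0.07), ND-B14,7 -0.10 (SE 0.07), ND-49 -0.06 (SE 0.05) and ND-15 -0.04 (SE 0.06). ATPsynbeta had -0.07 (SE 0.07) and SdhA -0.06 (SE 0.05). The 95% interval of a member's log2 change reached a median of 0.17 to either side over the 60 members, and it was narrower than that for some members, ND-SGDH among them. This comparison and the first share their control libraries, and the members' lower values in both are not separate observations.

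The third comparison set PGRP-LB Ecc15 against WT Ecc15, both infected, in 1 fit over the common scale of 9 libraries. The complex I genes ND-15, ND-13B, ND-20 and ND-SGDH were called lower in the mutant, and no member was called higher. The 3 mutant libraries are those of the first comparison. Outside complex I, quantile normalization also called ATPsynbeta and COX4L as lower, and a fit of the 6 infected libraries alone called ATPsynC as lower. These are 4 of 70 members tested (5.71%), where 6.63% of all 13252 genes were called lower and 9.92% higher (878 and 1315 genes, and 1395 and 1076 after quantile normalization). Of genes with a mean of at least 1000, 9.42% were called lower. The count was 1 without PGRP-LB Ecc15 S1 or WT Ecc15 S2 or S3, and 2 without PGRP-LB Ecc15 S2 or WT Ecc15 S1. It was 5 with TMM scaling (7.14%, the same share as of all genes). After quantile normalization it was 8 (11.4%, where 10.5% of all genes were called lower). ND-15 had a log2 change of -0.38 (SE 0.07, limma adjusted p = 0.00658) and kept its call without any 1 of the 6 infected libraries. No WT control library was left out of this fit. ND-13B had -0.33 (SE 0.07, limma adjusted p = 0.0147), lost without PGRP-LB Ecc15 S1 or WT Ecc15 S2 or S3 (limma adjusted p up to 0.0660).

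ND-20 stood at 4827, 4925 and 5124 in PGRP-LB Ecc15, at 5699, 5781 and 5598 in WT Ecc15 and at 5370.3, 5589.6 and 5834 in WT control. Both wild-type groups lay above the mutant, and they overlapped each other. Its log2 change against WT Ecc15 was -0.20 (SE 0.05, limma adjusted p = 0.0219), and that of ND-SGDH was -0.21 (SE 0.06, limma adjusted p = 0.0469). The call of ND-20 was lost without any 1 of the 6 infected libraries but PGRP-LB Ecc15 S3 (limma adjusted p up to 0.0888). That of ND-SGDH was lost without any 1 of these (limma adjusted p up to 0.168). It was also lost with no filter on low values or with the 6 infected libraries alone.

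Outside complex I, the largest change between the infected groups among members with a mean of at least 50 was that of COX4L, -0.50 (SE 0.17, limma adjusted p = 0.0870). COX5B had 0.16 (SE 0.06, limma adjusted p = 0.110) and UQCR-Q 0.14 (SE 0.10), and for both every mutant library was the higher. ATPsynbeta and ATPsynC had -0.19 (SE 0.07, limma adjusted p = 0.106) and -0.18 (SE 0.09, limma adjusted p = 0.199), with every mutant library the lower. The medians of complexes I to V were -0.064, -0.075, -0.014, -0.063 and -0.061, beside 0.012 over all genes. Of the 70 members tested 52 (74.3%) were below 0, where 48.5% of all genes and 55.7% of those with a mean of at least 1000 were. The mutant lay entirely below infected wild type for 16 members (22.9%, against 17.3% of all genes and 24.2% of those with a mean of at least 1000) and above it for 4 (against 21.5%). The median over the 70 was -0.055, and -0.0014 without PGRP-LB Ecc15 S1.

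The members of each complex were also summed in each library. The complex I sum was 101009, 108926 and 112354 normalized counts in PGRP-LB Ecc15, 112168, 117020 and 117254 in WT Ecc15, and 118976, 125345 and 121806 in WT control. The 3 mutant libraries lay below all 3 controls, and the highest of them was above the lowest infected wild-type library. The mean was 0.880 of WT control in PGRP-LB Ecc15 and 0.946 of WT control in WT Ecc15. Complex V, in which ATPsynbeta and ATPsynC have the highest levels, summed to 110465, 124734 and 124137 in PGRP-LB Ecc15, 128257, 130977 and 132754 in WT Ecc15 and 128864, 142413 and 139235 in WT control. Its mean in the mutant was 0.875 of WT control and 0.917 of WT Ecc15, and the mutant libraries lay below all others.

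Complex II averaged 20800 ± 628 in PGRP-LB Ecc15, 22103 ± 659 in WT Ecc15 and 23120 ± 574 in WT control (SD, n = 3 each), and the mutant libraries lay below all controls. In complexes III and IV the groups overlapped. Complex III averaged 25725 ± 1464 in PGRP-LB Ecc15, 25571 ± 1263 in WT Ecc15 and 27718 ± 2538 in WT control, a ratio of 1.006 between the infected groups. Complex IV averaged 37839 ± 2553 in PGRP-LB Ecc15, 38789 ± 2247 in WT Ecc15 and 42196 ± 4316 in WT control. All members together made up 1.09% to 1.21% of the library total in PGRP-LB Ecc15, 1.22% to 1.3% in WT Ecc15, and between 1.31% and 1.4% in WT control. No test was made on these sums, because the members were chosen with results of these data known.

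**Figure D5:**
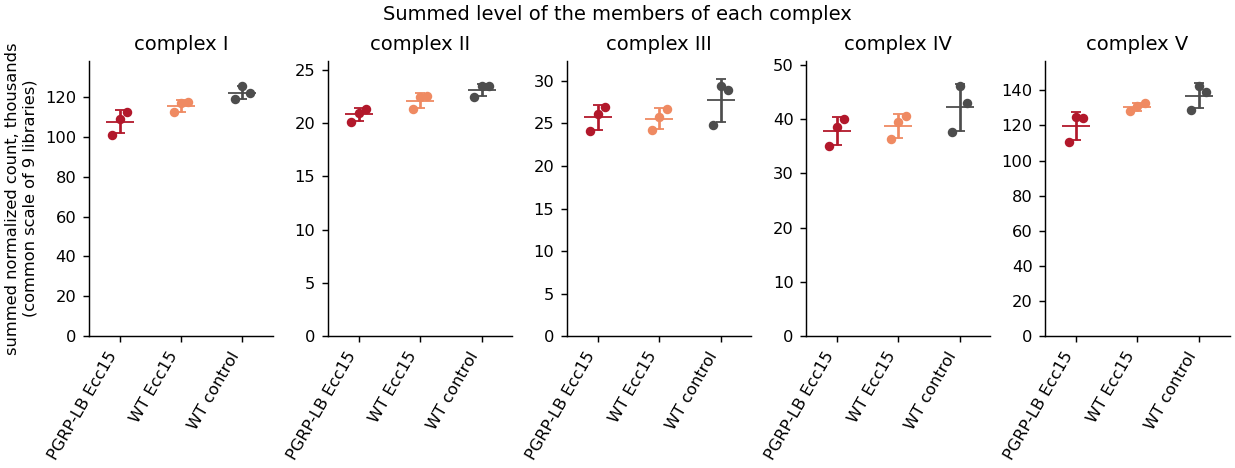
Summed normalized counts (divided by 1000, common scale, axes from 0) of the members of each complex in each library (points), with mean and SD (bars, n = 3), for PGRP-LB Ecc15, WT Ecc15 and WT control. The mutant libraries lie below all control libraries in complexes I, II and V and overlap them in complexes III and IV.

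Libraries of 1 group differed in many members at once. PGRP-LB Ecc15 S1 was the lowest of the 9 libraries for 38 of the 60 members with a mean of at least 50, and WT control S2 and S3 were the highest for 27 and 20. The median coefficient of variation within a group was 6.84% in PGRP-LB Ecc15, 4.01% in WT Ecc15 and 7.63% in WT control. The least even values of WT control were those of ND-MWFE and ND-MLRQ, with ND-MLRQ at 6078, 6766 and 9779. Over the 60 members Spearman's rho of the log2 change with exon length was -0.055 in the first comparison, 0.108 in the second and 0.016 in the third, a description over genes that share libraries.

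The like-named paralogs are mostly known as testis-enriched copies in this species, and the brains here were female. Of the 18, 2 were listed at 0, and of the other 16 COX4L alone exceeded 15 normalized counts in a deposited table. COX4L stood at 64, 69.8 and 81 in PGRP-LB Ecc15, at 102, 109 and 94 in WT Ecc15 and at 86, 71 and 74 in WT control, highest in infected wild type. None was called in any comparison. ATPsynepsilonL stood at 8, 14 and 9 in PGRP-LB Ecc15, at 1, 5 and 4 in WT Ecc15 and at 3, 3 and 0 in WT control, a log2 change against WT control of 2.13 (SE 0.64, limma adjusted p = 0.0670). SdhAL stood at 3, 9 and 6 in PGRP-LB Ecc15, 0, 3 and 2 in WT Ecc15 and 1, 2 and 5 in WT control. UQCR-11L lay between 4.92 and 15.1 in all groups. ND-51L1, ND-51L2, ND-49L, ATPsynCF6L, COX6AL, COX7AL, ATPsynbetaL, ATPsynGL and SdhBL stayed at or under 12.1 in every library, and the sum of the 18 paralogs was 119 to 136 in PGRP-LB Ecc15, 128 to 156 in WT Ecc15, and between 103 and 124 in WT control.

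Subunits that the name rule leaves out were set beside the members. Of 10 such nuclear genes, 3 were called lower in PGRP-LB Ecc15 than in WT control and 0 were called higher, beside 6.26% and 9.65% of all genes tested, and 3 of the 10 had a log2 change above 0. The called genes were Cyt-c1 of complex III (7434 ± 310 against 8898 ± 496), Cyt-c-p, the somatic cytochrome c (7202 ± 927 against 9502 ± 245), and knon, a testis relative of an ATP synthase subunit, at 3, 2 and 6 against 11, 37 and 21. Their limma adjusted p values were 0.0398, 0.0332 and 0.0346, and the median over the 10 was -0.14. Against WT Ecc15, Cyt-c-p (log2 change -0.36, limma adjusted p = 0.0207) and knon were called lower, beside 6.63% of all genes tested. The ATP synthase alpha subunit blw, the partner of ATPsynbeta, stood at 27440 ± 2016 in PGRP-LB Ecc15 and 31791 ± 2521 in WT control (log2 change -0.21, SE 0.09, limma adjusted p = 0.155).

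Of 13 subunit genes encoded in mitochondrial DNA, 8 were called higher in PGRP-LB Ecc15 than in WT control and 0 were called lower, with a median log2 change of 0.71, where 9.65% of all genes tested were called higher. A further 3, mt:ATPase6, mt:ATPase8 and mt:ND6, had a log2 change below 0. For mt:ND6 it was -0.69 (SE 0.22, limma adjusted p = 0.0822), with every mutant library below every control library. The cytochrome oxidase subunit mt:CoI stood at 233057, 232633 and 210250 in PGRP-LB Ecc15 and at 122266, 114920 and 136166 in WT control (log2 change 0.86, SE 0.11, limma adjusted p = 0.00303). The complex I subunit mt:ND1 had 0.89 (SE 0.13, limma adjusted p = 0.00604), and mt:CoII had 0.95 (SE 0.09, limma adjusted p = 0.000769). Against WT Ecc15, 7 were called higher with a median of 0.66, where 9.92% of all genes tested were called higher. Between WT Ecc15 and WT control none was called, with a median of -0.05. Libraries were poly(A)-selected, and the polyadenylation of mitochondrial RNA was not measured.

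Other mitochondrial lists were set beside all genes tested, of which 6.26% were called lower and 9.65% higher in PGRP-LB Ecc15 against WT control. Of 9 genes for assembly factors and electron carriers 2 were lower in PGRP-LB Ecc15 than in WT control: Taz, which remodels the membrane lipid cardiolipin (1377 ± 67.6 against 1946 ± 77.7, limma adjusted p = 0.00390), and Scox, a copper chaperone of complex IV (637 ± 53.8 against 818 ± 33.5, limma adjusted p = 0.0350). Of 15 genes of the TCA cycle and pyruvate entry 3 were lower (Idh3b, ScsbetaG and muc) with a median of -0.16. Among 6 mitochondrial carriers and channels none was called, and among 13 genes of mitochondrial biogenesis and quality Pink1 was lower (-0.21) and Marf, the fly mitofusin, was higher (0.27). Of 12 glycolysis genes 1 was called, Ldh, lactate dehydrogenase, which was higher at 2129, 1973 and 3367 in PGRP-LB Ecc15 against 204, 136 and 122 in WT control, a 16.0-fold difference (limma adjusted p = 0.000173). The glycolysis median was 0.0047. In WT Ecc15 against WT control no gene of these lists was called, where 0.122% of all genes were called higher and 0% lower. Between PGRP-LB Ecc15 and WT Ecc15, 1 of the 9 assembly and carrier genes and 1 of the 15 TCA cycle genes were lower. Of the 13 biogenesis genes 0 were lower, so Pink1 was not called, and 1 was higher. Of the 12 glycolysis genes 1 was higher. Beside these, 6.63% of all genes tested were lower and 9.92% higher.

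Markers of cell types differed between the groups too. The summed level of 9 glial markers was 107029 to 115611 in PGRP-LB Ecc15, 131096 to 133751 in WT Ecc15, and between 134242 and 149676 in WT control. Of the 9, 5 were called lower and 1 higher in the mutant against WT control, where 6.26% and 9.65% of all genes tested were. The 7 haemocyte markers summed to 11266 to 18954 in PGRP-LB Ecc15, 31187 to 39054 in WT Ecc15, and between 24932 and 28179 in WT control. In the mutant against WT control 2 of the 7 were called lower, and 2 had a log2 change above 0. Against WT Ecc15, 5 of the 7 were called lower, where 6.63% of all genes tested were. The 12 muscle markers summed to 21963 to 39596 in PGRP-LB Ecc15, 4311 to 10413 in WT Ecc15, and between 3887 and 16803 in WT control. Those of 9 photoreceptor markers varied widely, between 33482 and 150878 in PGRP-LB Ecc15, 92870 and 211714 in WT Ecc15 and 57760 and 335352 in WT control. The 9 neuronal markers summed to 239410 to 253537 in PGRP-LB Ecc15, 257366 to 273455 in WT Ecc15, and between 237358 and 272481 in WT control. Of these 9, against WT control, VAChT was called lower (log2 change -0.675, limma adjusted p = 0.000496) and VGlut higher (0.24, limma adjusted p = 0.0445). Against WT Ecc15, VAChT alone was called, as lower (-0.79, limma adjusted p = 1.01e-05). No photoreceptor or fat body marker was called in these comparisons. The 8 fat body markers summed to 112788 to 564024 in PGRP-LB Ecc15, 303909 to 417756 in WT Ecc15, and between 142375 and 266741 in WT control. The 8 male germline markers summed to 101 to 134 in PGRP-LB Ecc15, 154 to 175 in WT Ecc15, and between 91 and 126 in WT control, with 2 of them at 0 in each group, and no marker of the other lists was at 0 throughout a group. Of the 4 male germline markers tested, 1 was called lower in the mutant against WT control and 1 against WT Ecc15. Of the 12 muscle markers 1 (sls) was called higher in the mutant against WT control and 7 against WT Ecc15. Of all genes tested, 9.65% and 9.92% were called higher in these comparisons. In such bulk samples, fewer cells of a type and less RNA per cell cannot be told apart, and the part of cell composition in the values of the respiratory genes was not tested.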

How the data were processed

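Poly(A) RNA of 9 libraries, 3 per group, was analysed from 2 deposited tables that share the WT control libraries. Per the submitters' processing notes, HISAT2 (version 2), HTSeq, featureCounts and DESeq2 were used, with no role named. For genome build, gene annotation and strandedness of counting: not given in the sources used here. Values in both deposited sheets are whole numbers, and the sheet title speaks of raw data. The same control libraries differ between the tables by a constant factor (median ratios 1.013, 1.017 and 1.021 for S1 to S3), so these are treated as counts the authors normalized within each table and rounded, a score and not raw counts. The authors' deposited fold change (a ratio), its log2 value, and p-values and adjusted p-values appear only in sentences that name that source.

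Each comparison with WT control was fitted within its table by limma-trend (R 4.3.3, limma 3.58.1), two-sided, on log2(value + 1). Genes needed a mean of 1 or more. P-values were adjusted over all genes by Benjamini-Hochberg, with a threshold of 0.05; no count model was run. Log2 changes are on this scale, which understates changes of low values. PGRP-LB Ecc15 and WT Ecc15 stand in separate tables. All 9 libraries were therefore put on 1 scale by median-of-ratios factors between 0.988 and 1.016 for 1 fit, the WT control columns taken from the PGRP-LB table. Member values given per library and sums are on this scale, except the sums of the like-named paralogs, which are of deposited values. Values of other genes come from the table of their comparison. An exact permutation test of 3 against 3 libraries has a smallest p of 0.1. Library depth was estimated from gaps in the low whole numbers. Exon lengths and overlaps came from the BDGP6 annotation by symbol, which matched 16873 identifiers; a decimal comma in an identifier was read as a point. The fits were also run on simulated libraries, in which genes varied independently and no shift was shared by many genes of a library. That run does not test the calls made here.

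Members, gene lists and tests were chosen with earlier results of these data known. Genes named are the called members, the 2 of each complex with the highest level per kb, the largest change per complex and comparison, SdhA to SdhD, paralogs above a mean of 1 and called genes of the context lists; ND-75, COX5B, ATPsyndelta, ND-B14, ND-42, ND-30, ND-23, ND-MWFE, ND-B14,5A, ND-MNLL, UQCR-14, ND-B8, UQCR-6,4, ATPsyngamma, mt:ATPase6, mt:ATPase8, mt:ND6 and blw were named after their values were seen. VAChT, VGlut and sls of the marker lists were also named after their values were seen. Alternatives were another pseudocount, other filters, quantile and TMM scaling, each library of the 2 compared groups left out and other sets of libraries per fit. Promoter sequences were not used here.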

Additional observations from a re-analysis of the deposited data

How the results depend on the processing

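No paired analysis was possible because the columns carry marks (S1 to S3) that do not match the replicate numbers of the titles. The number of members called lower in PGRP-LB Ecc15 against WT control was 5, and it was 10 after quantile normalization and 13 in the joint fit of 9 libraries, and 2 to 6 with 1 library left out. That called higher was 0, and 1 (ATPsynepsilonL) with pseudocount 5 or in the joint fit, and 0 with 1 library left out. Between PGRP-LB Ecc15 and WT Ecc15 the number lower was 4, 5 with TMM scaling, 8 after quantile normalization and 1 to 4 with 1 infected library left out. With a filter at a mean of at least 10, ND-23 and ND-49 were called lower as well. The number higher was 0 to 1 (ATPsynbetaL, without PGRP-LB Ecc15 S2). In WT Ecc15 against WT control it was 0 in both directions under every alternative run. The median log2 change of the members stayed below 0 under all alternatives, between -0.199 and -0.073 with 1 library left out in the first comparison, -0.099 and -0.051 in the second and -0.089 and -0.0014 in the third. Quantile normalization moved the median of all genes by about 0.1, to -0.092 in the first comparison, where the members' median was then -0.201, and to -0.080 in the third, where it was -0.091. The share of calls that were higher was then 44.8%, against 60.7% without it, in the first comparison and 43.5%, against 60%, in the third.

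Single genes turned in sign only where they were not called. After quantile normalization ND-20 had -0.014 in WT Ecc15 against WT control. With 1 library left out, the ranges were -0.16 to 0.18 for ND-MLRQ, -0.15 to 0.085 for UQCR-Q and -0.16 to 0.019 for SdhD in the first comparison. In the second they were -0.0027 to 0.059 for ND-20, -0.063 to 0.28 for ND-MLRQ, -0.089 to 0.093 for SdhD, -0.071 to 0.023 for ND-15, -0.11 to 0.060 for ATPsynC and -0.094 to 0.010 for SdhB. In the third they were -0.058 to 0.042 for UQCR-C1, -0.094 to 0.061 for UQCR-C2, -0.081 to 0.021 for SdhB, -0.051 to 0.090 for ATPsynB and -0.10 to 0.007 for ND-18. The cause was not tested. With 3 libraries per group the 95% interval of a member reached a median of 0.21 (log2) to either side in the first comparison. The promoter motifs listed for these genes were not run.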
